A study of Mus musculus with 9 samples.

Results

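The core circadian clock of the mouse tongue is described here through 10 genes, chosen by symbol as its activators, repressors and output factor: Arntl, Clock, Per1, Per2, Per3, Cry1, Cry2, Nr1d1, Nr1d2 and Dbp. All 10 have a row among the 20512 named genes of the deposited expression table, and all 10 are among the 14490 genes whose mean log2 value reached 3 and which were therefore tested. RNA was read from the intact tongue in 9 libraries of mice about 6 weeks old on a mixed C57/Bl6 and FVB/NJ background, each given doxycycline in the drinking water at 2 mg/mL for 1 week. The 5 control libraries carry K14-rtTA alone and the 4 transgene libraries carry K14-rtTA with TREFLBmi-1, so both groups hold the doxycycline-dependent activator and the drug and differ by the inducible Bmi1 transgene. The keratin 14 promoter is active in basal epithelial cells, whereas a whole tongue also holds muscle, connective tissue, vessels and glands. The labels tie no library to an animal of its own, so the p-values speak to spread among libraries, which may be technical, and the labels used here give no hour of tissue collection.

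The clock is a feedback loop of transcription. ARNTL (also called BMAL1) and CLOCK bind DNA as a pair at E-box sequences and activate the Per and Cry genes, the Nr1d genes and Dbp. PER and CRY proteins then return to the nucleus and inhibit that pair. NR1D1 and NR1D2 (the REV-ERB receptors) repress Arntl from RORE sequences, where ROR receptors activate, and DBP carries the rhythm to other genes through D-box sequences. Levels of most of these transcripts swing over the day, with Arntl high when Per and Nr1d transcripts are low.

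Levels are on the log2 scale as deposited, after normalization, where a step of 1 means a doubling. Read counts were not analysed here, and the depth of the libraries is unknown. Bmi1 itself lay between 10.21 and 10.74 in controls and between 11.94 and 14.87 in transgene libraries. Markers of stratified keratinocytes, skeletal muscle, fibroblasts, endothelium and Schwann cells were all present, with the skeletal muscle list at a mean log2 value of 17.59 to 17.77 in the 9 libraries and the keratinocyte list at 16.82 to 17.25, while the 2 brain neuron markers averaged 2.43 to 2.50. The libraries fall into 3 sets, called strata, between which the deposited values hold no difference beyond the group means. The first replicate of each group makes up stratum 1. Control replicates 2 and 3 share stratum 2 with the other 3 transgene libraries, and stratum 3 is made of control replicates 4 and 5. Of 7 directions in which libraries could vary within groups, 5 hold variation, so any difference between strata in clock gene levels is not in these values. What the strata stand for was not stated in any source read here.

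No clock gene passed the test between the groups. In limma with terms for group and strata, 0 of the 10 members had an adjusted p under 0.05, against 1.66% of all tested genes (0.511% higher and 1.15% lower, Benjamini-Hochberg adjustment), and 0 of 10 had an unadjusted p under 0.05, against 23% of all tested genes. With the group as the only term, limma called 0 of 10 as well, against 24.4% of all tested genes (11.7% higher and 12.7% lower). Arntl and Nr1d1 were then the 2 members under an unadjusted p of 0.05, against 39% of all tested genes. The first fit is used below because the second counts 7 residual degrees of freedom where 5 exist. In the first fit stratum 3 holds no transgene library, so control replicates 4 and 5 inform the spread and not the differences. The SD given with a group mean lacks any difference between strata and may be too small. The groups overlapped for each of the 10 members, whereas they did not overlap for 21.3% of all tested genes. Differences are transgene minus control throughout. They were positive for 7 members and negative for 3, with a median of 0.07 against 0.00 over all tested genes.

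**Figure D1:**
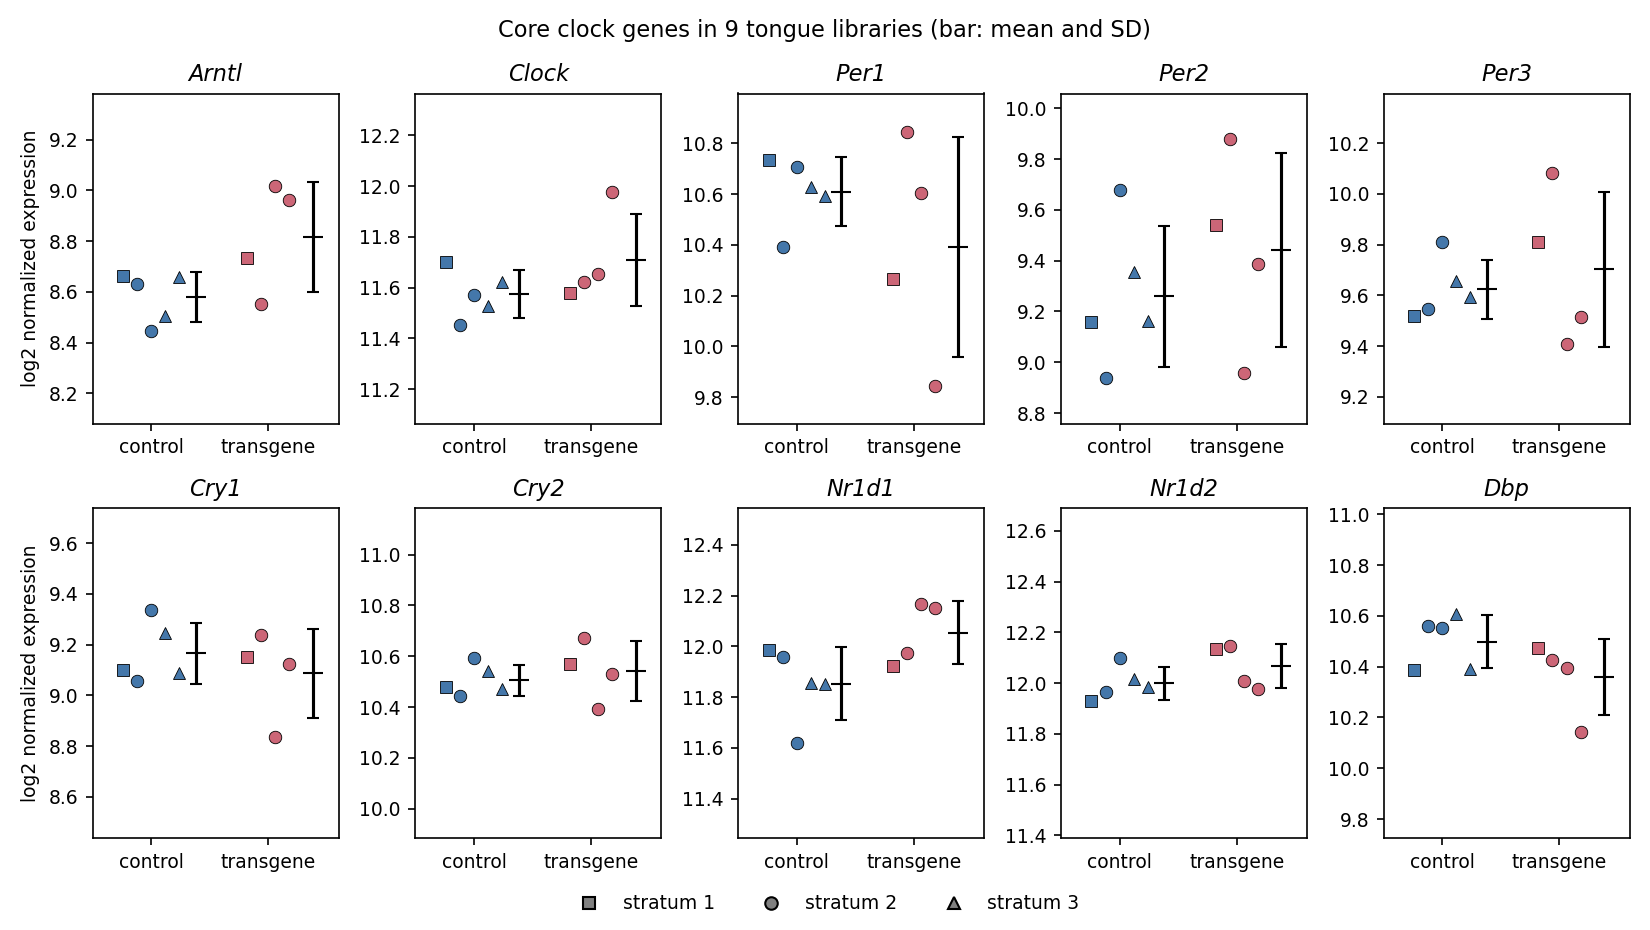
Log2 normalized expression of the 10 clock genes in each library, control in blue and transgene in red, with the marker shape giving the stratum and the bar giving the mean and SD of the group (n = 5 and n = 4). Each panel has its own y axis of equal height, and the groups overlap in all 10 panels.

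Arntl, the activator that the loop cannot run without, gave the largest positive difference of the 10 members. Its log2 values were 8.66, 8.63, 8.45, 8.50 and 8.66 in control replicates 1 to 5 and 8.73, 8.55, 9.02 and 8.96 in transgene replicates 1 to 4. Thus 3 of 4 transgene libraries lay above every control, and transgene replicate 2 lay among the controls. Controls averaged 8.58 ± 0.10 (SD, n = 5) and the transgene group 8.82 ± 0.22 (SD, n = 4), which is a difference of 0.24 (SE 0.11, 95% interval -0.02 to 0.49, limma adjusted p 0.247). With the group as the only term the adjusted p was 0.0784, and it was 0.0217 (difference 0.32) once transgene replicate 2, the transgene library among the controls, was left out of that fit. With strata terms and without that library the adjusted p was 0.168 at the same difference, so the call was lost. Leaving out any other single library gave Arntl no call with the group as the only term. Transgene replicate 2 was singled out after its value was seen. The exact permutation test of Arntl gave p = 0.0794 over 126 splits and p = 0.25 over the 20 splits within strata, which cannot go below 0.05. The 126 splits ignore the strata, as the fit with the group as the only term does, so their p may be too small.

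Clock, the DNA-binding partner of ARNTL, lay at 11.70, 11.45, 11.57, 11.53 and 11.62 in controls and at 11.58, 11.62, 11.65 and 11.98 in transgene libraries. Transgene replicate 4 alone was above every control. The difference was 0.13 (SE 0.10, 95% interval -0.09 to 0.35, limma adjusted p 0.439), and it was 0.04 without transgene replicate 4. Clock has the longest transcript of the 10 genes, and with a trend over transcript length taken out its difference was -0.02.

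Among the repressors, the 3 Period genes were the most uneven members. Per1, which also responds to acute signals such as glucocorticoids, was at 10.73, 10.39, 10.71, 10.63 and 10.59 in controls. In transgene libraries Per1 was at 10.27, 10.85, 10.61 and 9.85. Transgene replicates 1 and 4 thus lay below every control while transgene replicate 2 lay above every control. The mean difference for Per1 was -0.22 (SE 0.20, 95% interval -0.67 to 0.23, limma adjusted p 0.54), or -0.04 without transgene replicate 4 and -0.37 without transgene replicate 2.

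Per2 was at 9.16, 8.94, 9.68, 9.36 and 9.16 in controls and at 9.54, 9.88, 8.96 and 9.39 in transgene libraries. The lowest and the highest of the 9 values, in control replicate 2 and transgene replicate 2, were both in stratum 2. The difference was 0.18 (SE 0.22, 95% interval -0.30 to 0.67, limma adjusted p 0.645), and it ranged from -0.01 without control replicate 2 to 0.43 without control replicate 3. Per3 was at 9.52, 9.55, 9.81, 9.66 and 9.59 in controls and at 9.81, 10.08, 9.41 and 9.51 in transgene libraries. Transgene replicate 2 was above every control for Per3 and transgene replicates 3 and 4 were below every control, which left a difference of 0.08 (SE 0.15, 95% interval -0.25 to 0.41, limma adjusted p 0.783).

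The cryptochromes, the partners of the PER proteins in repression, varied less. Cry1 was at 9.10, 9.06, 9.34, 9.24 and 9.09 in controls and at 9.15, 9.24, 8.84 and 9.12 in transgene libraries, with transgene replicate 3 below every control. Its difference was -0.08 (SE 0.10, 95% interval -0.31 to 0.15, limma adjusted p 0.683). Cry2 was at 10.48, 10.44, 10.59, 10.54 and 10.47 in controls and at 10.57, 10.67, 10.39 and 10.53 in transgene libraries. For Cry2 the difference was 0.04 (SE 0.07), and its 95% interval of -0.12 to 0.19 spans 0.92-fold to 1.14-fold, so a change beyond those bounds lies outside the interval.

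Nr1d1, a repressor of Arntl, was at 11.99, 11.96, 11.62, 11.86 and 11.85 in controls and at 11.92, 11.97, 12.17 and 12.15 in transgene libraries. Transgene replicates 3 and 4 were above every control, as they were for Arntl. The difference for Nr1d1 was 0.20 (SE 0.10, 95% interval -0.02 to 0.42, limma adjusted p 0.248), with an adjusted p of 0.0788 for the group as the only term and 0.0482 in that fit without transgene replicate 1, the lowest transgene library. With strata terms and without that library the adjusted p was 0.0719, so the call was lost. Leaving out any other single library gave Nr1d1 no call with the group as the only term. Transgene replicate 1 was singled out after its value was seen. The exact permutation p of Nr1d1 was 0.0714 over 126 splits, which ignore the strata, and 0.25 within strata. Without control replicate 3 the difference for Nr1d1 was 0.06 in the fit with strata terms.

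Nr1d2, the paralogue of Nr1d1, was at 11.93, 11.97, 12.10, 12.01 and 11.98 in controls and at 12.14, 12.15, 12.01 and 11.98 in transgene libraries. The transgene libraries above every control were here replicates 1 and 2, and not 3 and 4 as for Nr1d1. The difference for Nr1d2 was 0.07 (SE 0.06, 95% interval -0.07 to 0.21, limma adjusted p 0.548).

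Dbp, the output factor, was at 10.39, 10.56, 10.55, 10.61 and 10.39 in controls and at 10.47, 10.43, 10.39 and 10.14 in transgene libraries. Transgene replicate 4 was below every control and the others were within the control range. Its difference was -0.14 (SE 0.09, 95% interval -0.34 to 0.06, limma adjusted p 0.376), and -0.07 without transgene replicate 4. The authors' deposited table lists 981 genes with adjusted p-values up to 0.0498, and it holds 0 of the 10 members.

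**Figure D2:**
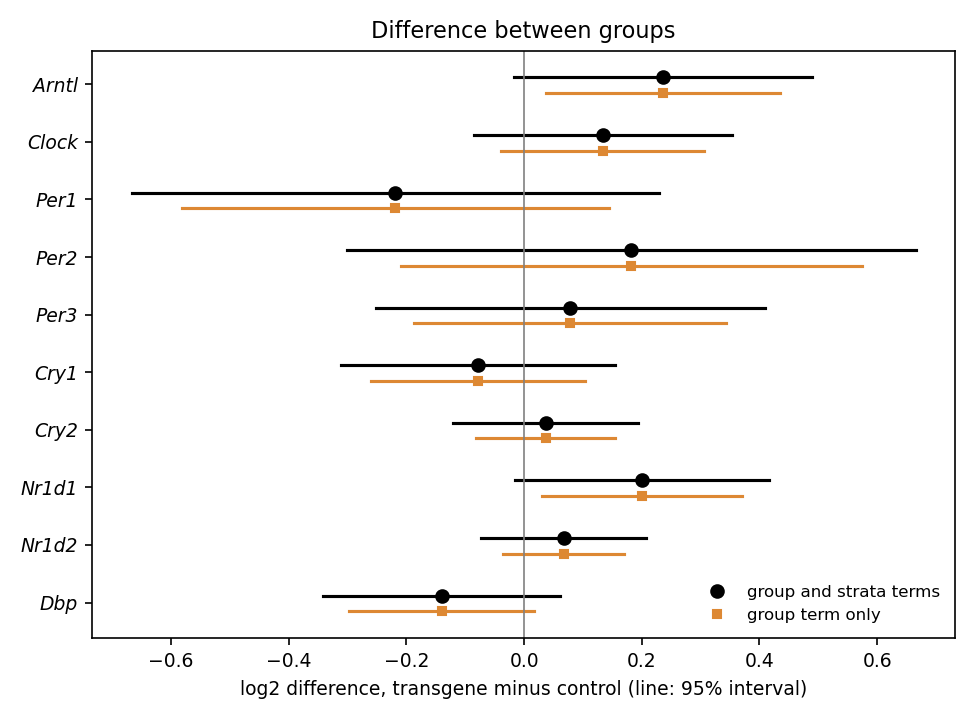
Log2 difference between transgene and control tongues for each clock gene, with its 95% interval in the fit with group and strata terms (black) and with the group as the only term (orange). All 10 black intervals include 0, and the orange intervals of Arntl and Nr1d1 do not.

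The 2 strata that hold both groups gave differences of opposite sign for 5 of the 10 members. The share of all tested genes with opposite signs was not computed, so the count describes these members only. In stratum 1, which has 1 library a group and allows no test, the difference was -0.12 for Clock, -0.06 for Nr1d1, 0.05 for Cry1, 0.09 for Dbp and 0.29 for Per3. In stratum 2 the difference was 0.24 for Clock, 0.31 for Nr1d1, -0.13 for Cry1, -0.24 for Dbp and -0.01 for Per3. Arntl differed by 0.07 in stratum 1 and 0.30 in stratum 2, and Per1 by -0.47 and -0.11. The difference between strata was not tested.

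Most of the clock genes varied widely between libraries of the same group, Nr1d2 and Cry2 less so. The between-library SD, taken from the residuals of the fit with group and strata terms, was above the median of all tested genes for all 10 members, with a median of 0.17 over the members against 0.08 over all tested genes. It was above the 90th percentile of all tested genes for 8 members. Per2 (SD 0.39) and Per1 (SD 0.36) had a larger SD than 99.8% and 99.6% of the 500 tested genes nearest to each in level, and Per3 (SD 0.26) exceeded 99% of its own 500. Arntl (SD 0.19) exceeded 95%, Cry1 (SD 0.17) 93.2%, Dbp (SD 0.15) 92.4%, Clock (SD 0.16) 92.2% and Nr1d1 (SD 0.16) 90.8%. Cry2 (SD 0.11) and Nr1d2 (SD 0.09) were closer to their neighbours, at 74% and 60.8%. These shares describe the libraries and carry no test. A wide spread was not particular to the members, since the outputs Pdk4 (SD 0.38) and Wee1 (SD 0.25) and the glucocorticoid-responsive genes Dusp1 (SD 0.35) and Tsc22d3 (SD 0.31) were above the 98th percentile of all tested genes too. The SD within the transgene group was above that within controls for 9 of the 10 members, Nr1d1 being the exception, beside 71.4% of all tested genes. Both SDs lack any difference between strata, and the controls are spread over more strata than the transgene libraries. That lack can therefore lower the control SD more, so these shares cannot show whether the groups differ in spread.

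**Figure D3:**
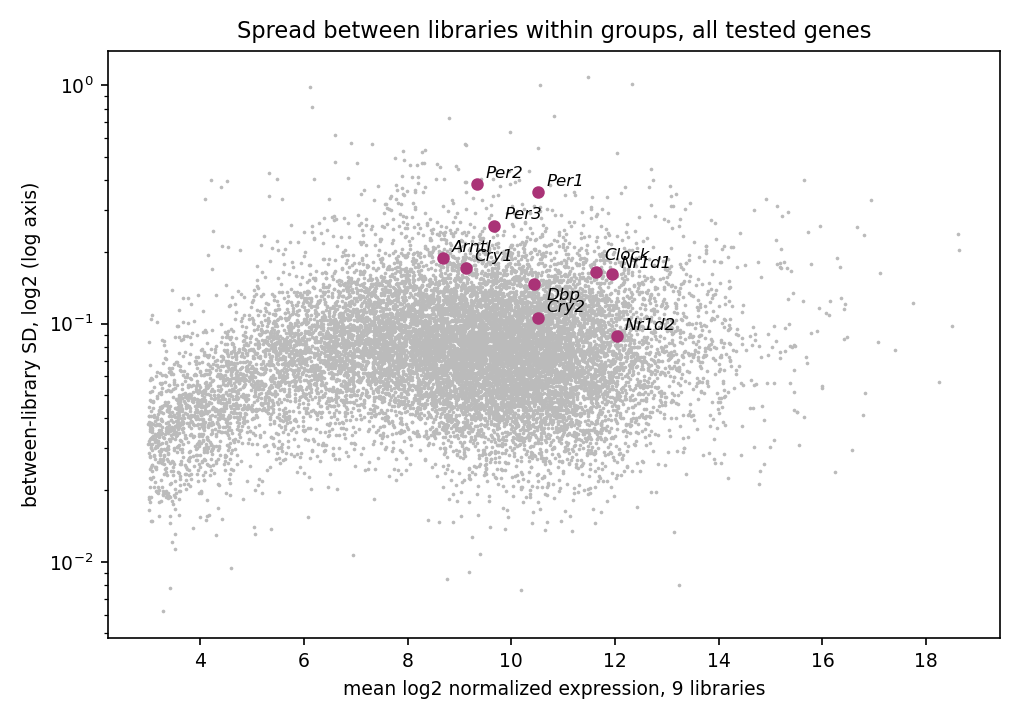
Between-library SD (log axis) against mean log2 normalized expression for all 14490 tested genes (grey) and the 10 clock genes (purple). Per1, Per2 and Per3 stand near the upper edge at their level, and Cry2 and Nr1d2 lie inside the main cloud.

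The same few libraries were at the extremes for several clock genes. Among controls, replicate 3 had the highest level of Per2, Per3, Cry1, Cry2 and Nr1d2 and the lowest level of Arntl and Nr1d1. Among transgene libraries, replicate 2 had the highest level of Per1, Per2, Per3, Cry1, Cry2 and Nr1d2 and the lowest of Arntl. Transgene replicate 3 showed the opposite, with the lowest Per2, Per3, Cry1 and Cry2 and the highest Arntl and Nr1d1. Measured from the group mean, Arntl stood at -0.26 in transgene replicate 2 and 0.20 in transgene replicate 3, while Per3 stood at 0.38 and -0.30 and Per2 at 0.44 and -0.48. In control replicate 3 the deviations were -0.13 for Arntl, 0.42 for Per2 and 0.19 for Per3. Transgene replicate 4 stood apart in another way, with Per1 at -0.55, Dbp at -0.22 and Clock at 0.27 from the group mean. Nr1d1 did not move with Nr1d2, standing at -0.24 in control replicate 3 where Nr1d2 stood at 0.10.

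The strata make the deviations of control replicate 1 and transgene replicate 1 mirror images of each other, and likewise those of control replicates 4 and 5, so the 9 columns carry 5 independent directions and no correlation test is given. Marker lists of other cell types also departed from their group means in control replicate 3 and transgene replicates 2 and 3, unevenly. The mean deviation of the 4 fibroblast markers was -0.28 in control replicate 3, -0.12 in transgene replicate 2 and 0.18 in transgene replicate 3, and that of the 3 endothelial markers was -0.25, -0.02 and 0.18 in the same libraries. Single fibroblast markers did not all follow their mean, as Pdgfra (11.58) and Dcn (15.05) were above their group means in transgene replicate 2. Dcn also had its lowest value of the 9 libraries (14.91) in transgene replicate 3. Schwann cell markers stood at -0.21 in control replicate 3, but at 0.05 in transgene replicate 2 and 0.03 in transgene replicate 3. The 2 salivary acinar markers averaged -0.08, -0.15 and 0.45 in the same libraries. The 0.45 came from Aqp5 (9.07, against 7.74 to 7.80 in the other transgene libraries). Muc5b (11.66) instead had its lowest transgene value in transgene replicate 3. The fibroblast list ran from 13.21 to 13.64 in controls and from 13.65 to 13.97 in transgene libraries, and the endothelial list from 11.06 to 11.46 and from 11.39 to 11.73. Within the fibroblast list the difference was 0.57 for Col1a1, 0.45 for Col3a1, 0.22 for Pdgfra and -0.05 for Dcn, so its mean followed mostly the collagen genes. With the group as the only term limma called 2 of 4 fibroblast markers and 1 of 3 endothelial markers higher, beside 11.7% of all tested genes, and 0 of either with strata terms (3 and 1 at an unadjusted p under 0.05, beside 23% of all tested genes). In transgene replicate 4 the 4 keratinocyte markers stood at 0.18 and the 4 skeletal muscle markers at -0.10. The part of these markers in the clock gene values was not tested, and in whole-tissue RNA fewer cells of a type and less RNA per cell cannot be told apart.

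**Figure D4:**
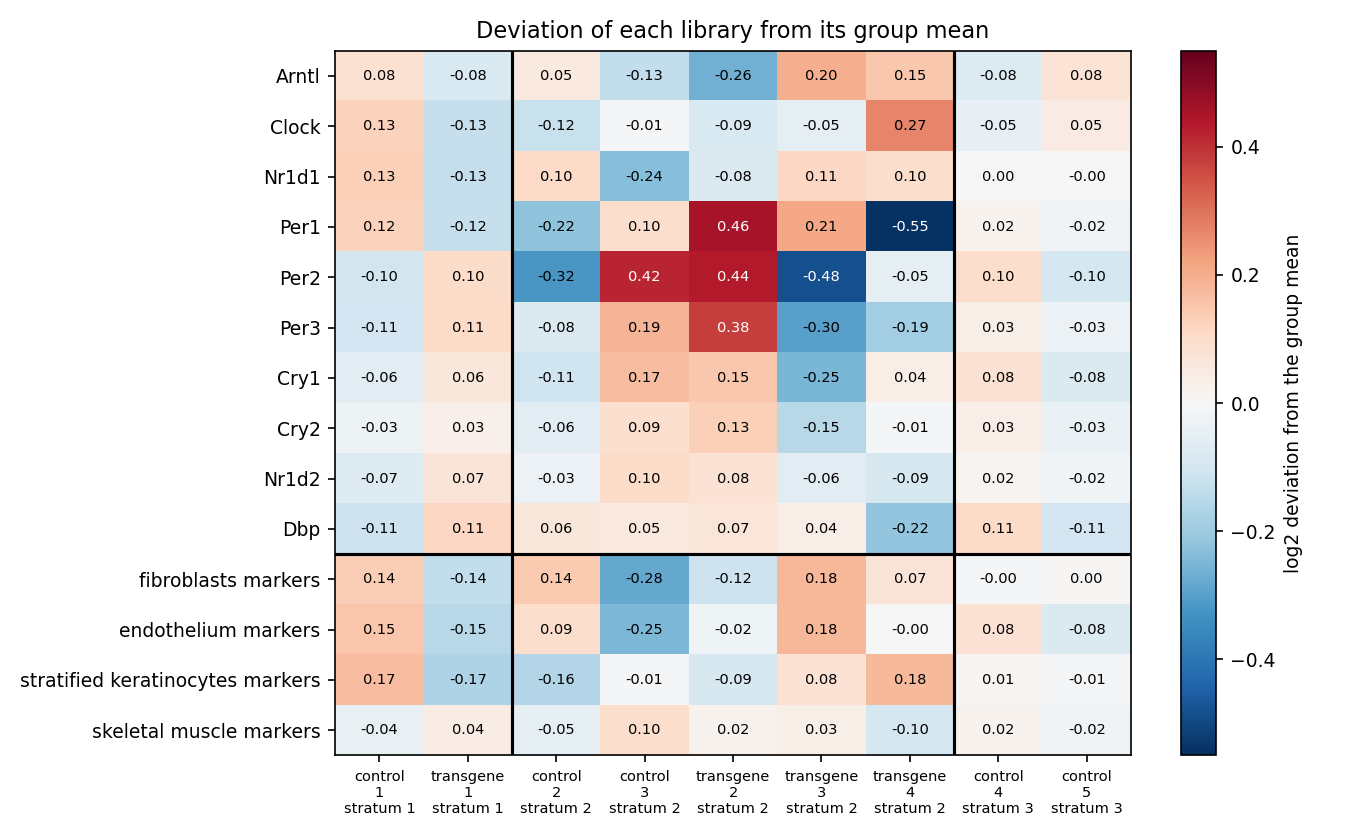
Log2 deviation of each library from its group mean for the 10 clock genes and for the mean of 4 marker lists, with libraries ordered by stratum. Per2, Per3, Cry1, Cry2 and Nr1d2 are above the group mean in control replicate 3 and transgene replicate 2, where Arntl and Nr1d1 are below it.

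Of the likeness to Arntl, measured as the Pearson correlation of deviations from the group means over the 9 libraries and given as a description, the lowest values among clock genes were those of Per3 (-0.98), Cry2 (-0.92), Nr1d2 (-0.90) and Per2 (-0.89). Per3 stood at the fifth lowest of the 14489 other tested genes, and 0.0276% of them were lower. For Cry2 the share of genes lower was 0.6%, for Nr1d2 1.03% and for Per2 1.24%. The DBP relative Tef (-0.91) and the repressor Ciart (-0.89) were on the same side of Arntl, whereas Nr1d1 (0.77) and the CLOCK paralogue Npas2 (0.62) were on its own side. Dbp was at -0.59 to Arntl, and the member most opposite to Dbp was Clock (-0.94).

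Promoters of the clock genes were read from RefSeq (GRCm38.p6) as windows from 250 bases before to 50 after each start. Windows were given for 9 of the 10 members, Per2 excepted. Motifs were searched on both strands, namely the E-box CACGTG, its variant CACGTT, the D-box as TTATGTAA or TTACGTAA and the RORE as TAGGTCA, and no match overlapped another. An E-box was found for 2 members, Per1 and Cry1, against 8.09% of all genes with a window. The variant was found for 3 members, Cry1, Cry2 and Nr1d1, against 5.44%. Per3 was the 1 member with a D-box, with matches that begin at positions -205 and -158 from the start, against 1.23%, and Arntl the 1 member with a RORE, beginning at position 31 from its second start, against 2.97%. The 250 bases before the start are shown for the 4 genes with the matches nearest to the roles described above, and a short stretch is shown for Arntl. Capitals mark the matches, and AACGTG is the variant read on the other strand.
Per1, chr11:69098699-69098948, plus strand: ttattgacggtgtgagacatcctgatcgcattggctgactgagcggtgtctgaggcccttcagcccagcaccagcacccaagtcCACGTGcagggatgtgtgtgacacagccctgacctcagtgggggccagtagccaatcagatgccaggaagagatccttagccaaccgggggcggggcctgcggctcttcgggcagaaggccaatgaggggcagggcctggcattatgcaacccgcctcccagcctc
Per3, chr4:151044666-151044915, minus strand: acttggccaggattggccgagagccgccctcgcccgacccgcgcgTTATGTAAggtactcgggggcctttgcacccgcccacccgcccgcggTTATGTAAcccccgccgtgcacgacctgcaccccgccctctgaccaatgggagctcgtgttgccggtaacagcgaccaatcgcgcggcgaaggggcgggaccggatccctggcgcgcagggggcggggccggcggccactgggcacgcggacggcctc
Cry1, chr10:85185055-85185304, minus strand: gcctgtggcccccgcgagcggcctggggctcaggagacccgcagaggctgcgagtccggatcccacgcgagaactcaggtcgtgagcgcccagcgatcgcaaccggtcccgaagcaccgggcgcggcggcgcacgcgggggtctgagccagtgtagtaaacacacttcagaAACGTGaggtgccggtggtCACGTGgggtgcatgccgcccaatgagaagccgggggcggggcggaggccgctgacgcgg
Nr1d1, chr11:98775378-98775627, minus strand: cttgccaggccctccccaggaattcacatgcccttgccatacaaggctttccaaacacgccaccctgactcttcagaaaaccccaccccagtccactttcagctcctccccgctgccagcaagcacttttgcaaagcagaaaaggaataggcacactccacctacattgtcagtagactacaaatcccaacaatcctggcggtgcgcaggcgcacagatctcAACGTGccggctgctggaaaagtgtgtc
Arntl, chr7:113207531-113207557, plus strand: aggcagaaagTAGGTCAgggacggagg
In Cry1 the variant and the E-box begin at positions -79 and -60. The E-box of Per1 begins at position -166 from the first of its 2 starts, and the window of the other start holds no match. The variant of Nr1d1 begins at position -28. For Nr1d1 and Cry2 the bases around the start were not found in a GENCODE M21 transcript of the gene, so their positions rest on the RefSeq start alone. A match is a description of the letters and not a measured site, and windows without one say nothing about sequence outside them.

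**Figure D5:**
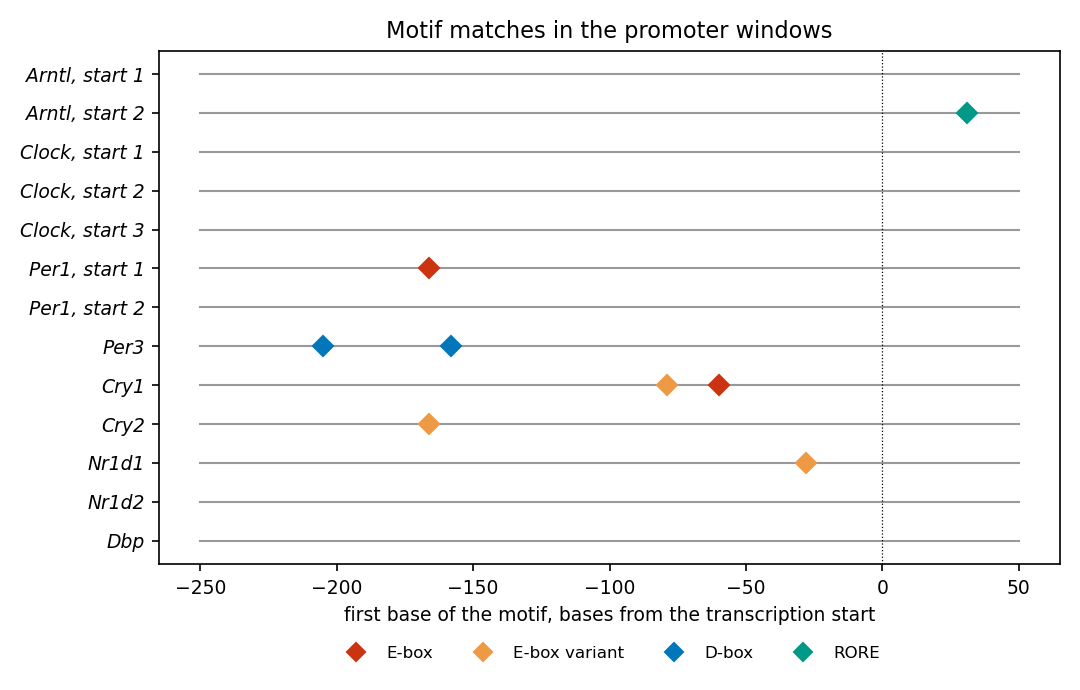
Position of each motif match in the promoter windows of 9 clock genes, in bases from the transcription start, with 1 line for each annotated start. Matches are present for Arntl, Per1, Per3, Cry1, Cry2 and Nr1d1.

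Levels were compared between genes per kilobase of the longest annotated protein-coding transcript. Which transcript the tongue expresses was not determined, so the order of the genes depends on that choice. In controls the 2 REV-ERB genes and the output factor led, with Nr1d1 at a log2 level per kilobase of 10.41 ± 0.14 (SD, n = 5), Nr1d2 at 9.78 ± 0.06 and Dbp at 9.62 ± 0.10. Cry2 (8.51 ± 0.06), Per1 (8.39 ± 0.14) and Clock (8.29 ± 0.09) followed, and neither Cry2 and Per1 nor Per1 and Clock differed beyond their spread. Cry1 (7.57 ± 0.12) stood above Per3 (7.04 ± 0.12) and Arntl (7.01 ± 0.10), which did not differ beyond their spread. Per2 (6.71 ± 0.28) had the lowest mean, but it did not differ from Per3 or Arntl beyond their spread. In transgene libraries Nr1d1 had the highest mean at 10.61 ± 0.12 (SD, n = 4), and Per2 (6.90 ± 0.38), Per3 (7.12 ± 0.31) and Arntl (7.24 ± 0.22) had the lowest means and did not differ beyond their spread.

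Of 37 other genes of the clock and its inputs and outputs, 36 were tested. In limma with strata terms 0 were called (3 had an unadjusted p under 0.05, beside 23% of all tested genes), and the median difference was -0.01. With the group as the only term 3 were higher and 0 lower, beside 11.7% and 12.7% of all tested genes. Those 3 were Arntl2 (0.09, adjusted p 0.047), the paralogue of Arntl, Gsk3b (0.16, adjusted p 0.0253), a kinase that acts on clock proteins, and Fbxl21 (0.10, adjusted p 0.0141), an F-box protein that controls cryptochrome turnover. Their adjusted p-values with strata terms were 0.267, 0.155 and 0.12. Fbxl21 lay between 3.71 and 3.88 in every library, near the floor of 3 for testing. Low genes vary little in these values.

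Among the genes closest to the loop, Npas2, which can replace CLOCK, differed by -0.01 (SE 0.08). The ROR receptor gene Rora differed by 0.27 (SE 0.14, limma adjusted p 0.281). Rorb lay between 2.24 and 2.35 in every library, under the floor for testing. Tef and Hlf, relatives of DBP that bind the same D-box, differed by -0.05 (SE 0.08) and -0.02 (SE 0.10), and Nfil3, which represses from that site, by -0.11 (SE 0.07). Ciart, listed in the table under its older symbol, differed by -0.09 (SE 0.13), Bhlhe40 by -0.04 (SE 0.08), Bhlhe41 by 0.02 (SE 0.09) and Timeless by -0.01 (SE 0.09). None of these genes passed in either fit.

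Clock-controlled outputs and glucocorticoid-responsive genes were likewise without a call, at 0 of 9 and 0 of 7 in both fits of limma. Of all tested genes, 1.66% were called with strata terms and 24.4% with the group as the only term. At an unadjusted p under 0.05 with strata terms the counts were 1 and 0, beside 23% of all tested genes. The outputs had a median difference of -0.01. Their differences were positive for 3 and negative for 6, from -0.32 (SE 0.13, limma adjusted p 0.186) for Ucp3, a mitochondrial carrier gene of muscle, to 0.14 (SE 0.09) for the transcription factor gene Klf10. The glucocorticoid-responsive list, which shares Per1's acute input, had a median of -0.04, with 2 positive and 5 negative differences from -0.20 (SE 0.09) for Errfi1, a feedback inhibitor of EGF receptor signalling, to 0.16 (SE 0.11) for the zinc finger gene Zbtb16. The genes named from these lists are their extremes and were chosen after their values were seen.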

How the data were processed

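Tongue RNA of 9 mouse libraries was measured by single-end sequencing of stranded mRNA libraries, per the labels' protocols. TopHat2, HTSeq, DESeq2 and the mm9 build are named, without versions or roles, by the submitters' processing notes. What the authors deposited is expression on a log2 scale after normalization, so the depth is unknown. A second deposited table holds the authors' log2 fold change and adjusted p-value for 981 genes. Genes at exactly 0 in every library (3064) and 1 row without a name were left out. Low genes vary little in these values, so folds of low genes may be understated.

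Samples were grouped by genotype, and replicates were numbered in accession order. A search of 3010 partitions of the libraries into 3 sets found 1 whose set means left no effect. Tests used limma 3.58.1 in R 4.3.3 on the 14490 genes averaging 3 or more on the log2 scale, terms for group and strata, an intensity trend and two-sided p-values. The fit was tested on simulated data. Single genes were also tested by two-sided exact permutation. Transcript lengths came from GENCODE M21 for 99.6% of tested genes. Alternatives were the group as the only term, filters, variance priors, scalings, a length trend taken out, single strata and each library left out. Every member was named, as was each listed gene that passed in either fit and each listed gene of the activator, ROR, PAR bZIP and repressor lists, with the 6 genes most like and most unlike Dbp and Arntl. A few genes under this rule are not reported here. Members and lists were chosen with earlier results of these data known.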

Additional observations from a re-analysis of the deposited data

Results flagged for a closer look

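Gaps between samples were examined in 42 groups of values, for the 10 clock genes and 11 related genes in both groups. No clock gene had a library far from the others of its group by Dixon's criterion. Rora in transgene replicate 1 (8.59, next lowest 8.92) and Nfil3 in transgene replicate 2 (8.25, next highest 8.14) stood apart from the other transgene libraries. Chance sets apart about 1 in 20 groups.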

How the results depend on the processing

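The count of clock genes called was 0 higher and 0 lower in limma under each alternative chosen at the start that allows a test, single libraries left out included. Stratum 1 alone, with 1 library a group, allows none. Leaving out 1 library without strata terms, an alternative added after seeing the data, gave 0 to 1 members higher, namely Arntl without transgene replicate 2 (0.32) and Nr1d1 without transgene replicate 1 (0.24), and 0 lower. With the length trend taken out, Clock (-0.020) and Per3 (-0.012) turned negative, with strata terms or without, the latter added after seeing the data. Per3 was -0.0095 in stratum 2 alone. In stratum 1 alone Clock was -0.12, Cry1 0.048, Nr1d1 -0.062, Dbp 0.088 and Nr1d2 0.21. The cause was not tested. Filters, priors, median centring and quantile normalization turned no member, and centring and quantile normalization moved the median of all genes by 0.0024 and -0.0014.

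With 1 library left out in turn, the ranges were 0.15 to 0.32 for Arntl, 0.04 to 0.24 for Clock, -0.37 to -0.04 for Per1, -0.010 to 0.43 for Per2, -0.048 to 0.19 for Per3, -0.14 to 0.024 for Cry1, -0.0076 to 0.090 for Cry2, 0.06 to 0.31 for Nr1d1, 0.01 to 0.13 for Nr1d2 and -0.24 to -0.07 for Dbp. With the group as the only term they were 0.17 to 0.32, 0.04 to 0.18, -0.37 to -0.04, 0.04 to 0.34, -0.048 to 0.18, -0.13 to 0.0048, -0.0076 to 0.087, 0.14 to 0.24, 0.04 to 0.10 and -0.18 to -0.07 in the same order. Over all genes, 74 were higher and 166 lower, against 1690 and 1847 with the group as the only term, 28 and 41 after quantile normalization, 6 and 4 with the length trend taken out, 333 and 400 in stratum 2 alone, and 37 higher without a filter. Without strata terms they were 909 and 994 with the length trend taken out and 1760 and 1776 after median centring. Leaving out 1 library gave 0 to 889 higher and 0 to 952 lower, and without strata terms 986 to 1698 and 1272 to 1828. Differences smaller than the intervals given could not be detected with these libraries. No paired analysis was possible because the labels give no replicate numbers.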

Other observations

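Among the tested genes most like Dbp across the 9 libraries, by the correlation of deviations from the group means, were Tctn3 (1.00), B3galt1 (0.99), Mamstr (0.99), Isca2 (0.99) and Cyp4f13 (0.98). Mamstr encodes a transcriptional regulator of skeletal muscle genes. The most opposite to Dbp were Nfatc1 (-0.99), Trpm6 (-0.99), Rbm47 (-0.99), Ap1b1 (-0.99), Rab25 (-0.99) and Col4a6 (-0.99), of which Rab25 encodes an epithelial trafficking protein. Among those most like Arntl were Tmem9b (0.99), Mob3a (0.99), 9030624J02Rik (0.99), Phldb3 (0.98) and Incenp (0.98), and the most opposite were Trmt1l (-0.99), Grpel2 (-0.99), Gzmm (-0.99), Aox1 (-0.99), Per3 (-0.98) and Tonsl (-0.98). With 5 independent directions among 14490 genes, these values are a description and say nothing of shared control. Among the related genes Sgk1 (-0.97) and Nampt (-0.96) were opposite to Arntl, and Cdkn1a (0.94) was on its side. These 3 were named after their values were seen.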
